A study of Mus musculus with 12 samples.

Results

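A set of 9 genes of metal handling, Mt1, Mt2, Slc39a14, Slc30a1, Slc11a2, Steap4, Tfrc, Fth1, and Slc40a1, was followed across the 4 conditions of a bulk RNA-seq experiment on cultured fibroblasts. They were chosen by gene symbol for their roles in zinc and iron handling, and each symbol matched 1 of the 56941 genes in the deposited table of counts (ENSMUSG00000031765 for Mt1, ENSMUSG00000031762 for Mt2, ENSMUSG00000022094 for Slc39a14, ENSMUSG00000037434 for Slc30a1, ENSMUSG00000023030 for Slc11a2, ENSMUSG00000012428 for Steap4, ENSMUSG00000022797 for Tfrc, ENSMUSG00000024661 for Fth1, and ENSMUSG00000025993 for Slc40a1). Earlier results of these data were known when these genes and the wider lists below were chosen. The cells were wild-type 3T3-L1, a mouse embryonic fibroblast line kept as a clonal subline and often used as a preadipocyte model. They were cultured for 24 hours with vehicle (control), with 50 ng/mL each of IL-13 and IL-4 (IL-4/13), with a mixture of IL-1β at 0.5, TNF-α at 20, and IL-17A at 50 ng/mL (Inf), or with both mixtures combined (IL-4/13 + Inf), and 3 libraries were made for each condition. The experiment asked how fibroblasts respond to type 2 cytokines with and without the other inflammatory cytokines. The labels name 1 batch for all libraries and do not say whether the libraries came from separate cultures, so the p-values measure the spread between these libraries, which may be technical.

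Metallothioneins are small cysteine-rich proteins that bind zinc and copper in the cytosol, and zinc itself induces their genes through the transcription factor MTF1 and the metal response element (MRE) in their promoters. Zinc enters the cytosol through ZIP carriers (the Slc39 genes) and leaves it through ZnT carriers (the Slc30 genes). Iron enters cells on transferrin through the transferrin receptor, is reduced by STEAP reductases and moved out of the endosome by DMT1, is stored in ferritin, and leaves through ferroportin. When iron is scarce, iron regulatory proteins bind hairpins called iron-responsive elements (IREs), which blocks translation of ferritin and ferroportin mRNA and protects transferrin receptor mRNA from decay.

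The sequences below are the promoters of both metallothionein genes, shown because the genes are neighbours on chromosome 8 and carry the same kind of metal-sensing element. Each runs from 250 bases before the start of transcription to 30 bases after it on the plus strand (RefSeq, GRCm38.p6, at chr8:94178839-94179118 for Mt1 and chr8:94172368-94172647 for Mt2). Capitals mark matches to the MRE core, TGCGCNC or TGCACNC, on either strand.
Mt1: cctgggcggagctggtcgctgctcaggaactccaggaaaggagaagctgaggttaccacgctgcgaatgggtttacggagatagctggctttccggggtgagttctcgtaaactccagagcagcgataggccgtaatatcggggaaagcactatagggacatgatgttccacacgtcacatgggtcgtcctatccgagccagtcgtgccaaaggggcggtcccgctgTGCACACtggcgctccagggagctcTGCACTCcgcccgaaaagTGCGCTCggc
Mt2: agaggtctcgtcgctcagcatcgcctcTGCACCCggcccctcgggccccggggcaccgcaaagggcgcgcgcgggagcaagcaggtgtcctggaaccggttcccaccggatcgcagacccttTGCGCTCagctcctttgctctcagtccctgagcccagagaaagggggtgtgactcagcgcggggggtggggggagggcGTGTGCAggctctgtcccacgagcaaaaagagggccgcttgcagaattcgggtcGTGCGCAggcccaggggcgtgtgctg
Positions count from the RefSeq start and depend on that choice. GENCODE M21 starts the Mt2 gene at base 94172664, past the end of the printed Mt2 window. The Mt1 window held 3 MRE matches, beginning at positions -23, 3, and 21 from the start of transcription. The Mt2 window held 4, at -223, -128, -50, and 5, and 1 match to the core of the antioxidant response element, TGACNNNGC, at -79. This core was in 12.4% of all windows and also, at -82, in that of Slc30a1. Among 32851 promoter windows of 300 bases, 25.7% held at least 1 MRE match, 1.97% held as many as Mt1, and 0.517% held as many as Mt2. The promoter table held windows for 6 of the 9 genes. The Slc30a1 window had 2 MRE matches, as did 1 of 2 windows of Tfrc, where the matches overlapped. The windows of Fth1 and Steap4 had none, and that of Steap4 had 2 matches to the κB motif and 1 to the STAT3 motif TTCNNNGAA, found in 8.46% and 8.30% of all windows, respectively. No window of the 6 genes held the STAT6 motif (TTC and GAA separated by 4 bases), which was in 6.95% of all windows. These matches describe letters in the windows and are not evidence of binding.

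The next sequences are IRE-like hairpins, shown because 3 of the 9 genes held a match in the transcript searched. A gene without a match may still carry an IRE, since other transcripts were not searched and no mismatch was allowed. The longest coding transcript of each gene in GENCODE M21 was searched for a hairpin of 17 bases, with a C, 5 bases that pair, and the loop CAGUGN, whose 6 letters are in capitals.
Fth1, 5′ UTR: cuucaaCAGUGCuugaa
Slc40a1, 5′ UTR: cagcuaCAGUGUuagcu
Tfrc, 3′ UTR, base 3321: cggaagCAGUGCcuucc
Tfrc, 3′ UTR, base 3700: cgggagCAGUGUcuucc
Tfrc, 3′ UTR, base 3765: cggagaCAGUGAucucc
Tfrc, 3′ UTR, base 3812: cgggaaCAGUGUuuccc
The 4 hairpins of Tfrc, the transferrin receptor, lay between bases 3321 and 3828 of a transcript of 4890 bases. Fth1, the ferritin heavy chain, and Slc40a1, ferroportin, each had 1 ahead of the coding sequence. In all, 272 of 21901 genes (1.24%) held such a match. These letters were not found in the longest coding transcript of Slc11a2, and its other transcripts were not searched.

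The libraries held 13446005 to 20775769 counts, and all 9 genes were among the 14810 tested. Levels are given as CPM, which are counts scaled to a common library size after normalisation. All 10 fibroblast markers were detected in every condition, with a summed level of 16666 to 19435 CPM in control and 11769 to 12140 CPM in IL-4/13 + Inf. Of 8 adipocyte markers, 5 were at 3 or fewer counts in every library, among them Adipoq and Plin1. The summed level of the 8 was 33.4 to 37.0 CPM in control, 35.5 to 43.6 CPM in IL-4/13, 55.9 to 58.5 CPM in Inf, and 35.9 to 42.1 CPM in IL-4/13 + Inf, so that it was highest where Mt1 and Fth1 were highest. Of the detected adipocyte markers, Fabp4 was at 11.3 ± 0.790 CPM in control, 30.1 ± 1.85 in Inf, and 19.4 ± 1.92 in IL-4/13 + Inf, and Lipe at 10.6 ± 1.46, 17.9 ± 2.20, and 15 ± 1.18 CPM, while Plin4 was at 13.8 ± 1.02, 9.05 ± 1.14, and 5.25 ± 0.534 CPM (SD, n = 3). The 10 macrophage markers summed to 20.7 to 27.0 CPM without Inf and 46.4 to 62.1 CPM with it. Most of that rise was Cd14, at 14.9 ± 1.49 CPM in control and 44.7 ± 6.81 CPM in Inf (SD, n = 3), whereas Adgre1, Itgam, and Marco were at 3 or fewer counts in every library. The part of adipocyte-like or macrophage-like expression in the results was not tested. In bulk RNA, more cells of a type and more RNA per cell cannot be told apart.

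**Figure D1:**
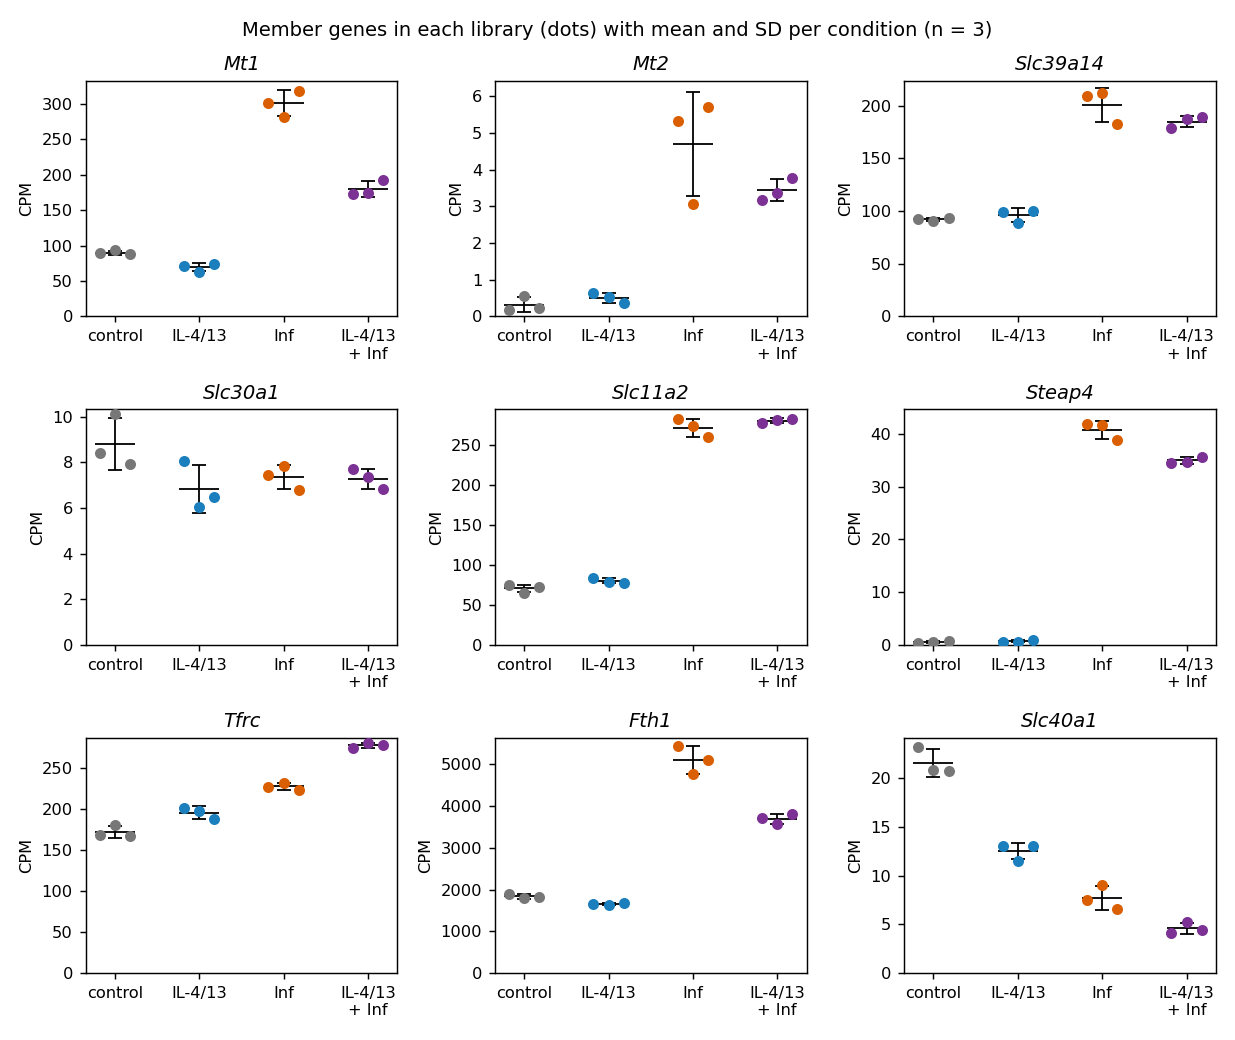
CPM (vertical axes, linear from 0) of each gene in each library (dots), with the mean and SD of the 3 libraries as a bar with whiskers, for the 4 conditions. Libraries with Inf lie above those without it for 7 genes and below for Slc40a1, while Slc30a1 stays between 6.03 and 10.1 CPM.

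Inf upregulated 7 of the 9 genes and downregulated 1. Steap4, Mt2, Slc11a2, Mt1, Fth1, Slc39a14, and Tfrc rose, Slc40a1 fell, and Slc30a1 did not pass the test. A call required a log2 fold change beyond 0.25 and, in edgeR's quasi-likelihood test, a Benjamini-Hochberg adjusted p below 0.05. By this rule, 16.3% of all tested genes rose with Inf and 15.3% fell. Because the 9 genes and the lists were chosen with earlier results known, such shares are set beside them as descriptions only. IL-4/13 + Inf against control upregulated the same 7 genes and downregulated Slc40a1, against 13.4% and 11.5% of all tested genes.

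IL-4/13 alone downregulated 2 of the 9 genes, Mt1 and Slc40a1, where 2.57% of all tested genes fell. No member was called upregulated, where 2.78% of all tested genes were. At an unadjusted p below 0.05, 2 had risen in edgeR, Tfrc and Slc11a2. Both also passed the adjusted p (0.0062 and 0.027) but not the fold threshold, each at a log2 fold change of 0.18. DESeq2 also called 0. With IL-4/13 on top of Inf, 1 gene rose (Tfrc) and 3 fell (Mt1, Fth1, and Slc40a1), with 7.55% of all tested genes rising and 7.00% falling. The comparisons share the control or Inf libraries, so they are not independent of each other.

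**Figure D2:**
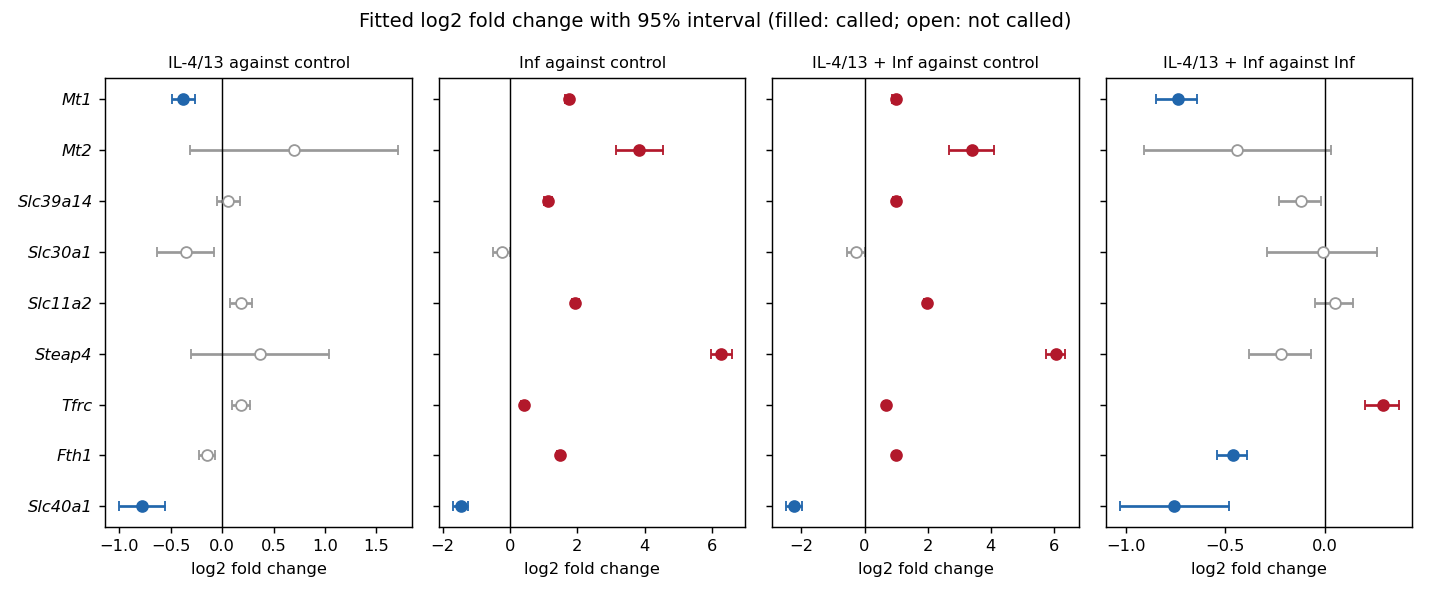
Fitted log2 fold change (horizontal axes, each panel with its own scale) of the 9 genes in 4 comparisons, with 95% intervals; filled red points were called up, filled blue points down, and open points were not called. Steap4 has the largest rise with Inf (6.28), and Slc40a1 was called down in all 4 panels. Slc30a1 also lies below 0 in all 4 panels, without a call.

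Mt1 and Mt2 encode the metallothioneins that most tissues express. Mt1 was at 89.7, 93.2, and 87.7 CPM in control, at 71.4, 63.5, and 73.7 CPM in IL-4/13, at 302, 282, and 319 CPM in Inf, and at 173, 174, and 192 CPM in IL-4/13 + Inf. No library of any condition overlapped with those of another, and IL-4/13 + Inf lay between control and Inf. Inf raised Mt1 3.33-fold (log2 fold change 1.74 with an SE of 0.056, adjusted p = 6.8e-21). IL-4/13 lowered it 1.30-fold alone (log2 fold change -0.38 with an SE of 0.059, adjusted p = 5.2e-05) and 1.67-fold on top of Inf (log2 fold change -0.74 with an SE of 0.054, adjusted p = 1.3e-11). With both, Mt1 was 1.99-fold above control (log2 fold change 0.99, SE 0.057, adjusted p = 5.9e-15).

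Mt2 had few counts without Inf, with 3, 9, and 4 counts in control and 12, 8, and 5 counts in IL-4/13. With Inf it had 80, 63, and 94 counts (5.32, 3.07, and 5.70 CPM), and with IL-4/13 + Inf it had 64, 60, and 56 counts (3.17, 3.37, and 3.78 CPM). All libraries with Inf exceeded all those without it, while Inf and IL-4/13 + Inf overlapped because the second Inf library was the lowest of the 6. The log2 fold change against control was 3.83 with Inf (95% interval 3.14 to 4.53, adjusted p = 2.2e-10) and 3.40 with IL-4/13 + Inf (95% interval 2.68 to 4.12, adjusted p = 6.0e-09). Adding IL-4/13 to Inf gave -0.44 (95% interval -0.91 to 0.03, adjusted p = 0.20), and without the second Inf library it gave -0.68 (adjusted p = 0.041), which would be called. IL-4/13 alone gave 0.70 with a 95% interval of -0.31 to 1.71.

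Counts on Mt2 were 0.191 to 0.599% of those on Mt1 in control and 1.09 to 1.79% in Inf. In the transcripts of GENCODE M21, 45.5% of the 50-base stretches of Mt2 also occur on the opposite strand, in the antisense gene Gm45774, and none occur on the same strand of another gene. Gm45774 itself had 0 to 9 counts in any library, which was 10 to 50% of the counts on both genes in control, 5.97 to 10.1% in Inf, and 1.64 to 8.20% in IL-4/13 + Inf. The library kit keeps strand, but the strand setting used in counting is not given in the sources used here. Reads of Mt2 and Gm45774 therefore cannot be told apart with certainty. The level of Mt2 is uncertain by an amount that the counts on Gm45774 do not bound. Mt1 shared no 50-base stretch with another gene. The remaining metallothionein genes were close to absent, with at most 3 counts of Mt3 in any library.

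Slc39a14 encodes ZIP14, a carrier that brings zinc and also iron into the cell. It was at 92.1, 90.4, and 93.8 CPM in control, at 99.0, 88.7, and 100 CPM in IL-4/13, at 209, 212, and 183 CPM in Inf, and at 179, 187, and 189 CPM in IL-4/13 + Inf. Every library with Inf was above every library without it, and within each of these 2 sets the conditions overlapped. Inf raised it 2.19-fold (log2 fold change 1.13, SE 0.055, adjusted p = 6.2e-17) and IL-4/13 + Inf raised it 2.01-fold (log2 fold change 1.01, SE 0.055, adjusted p = 1.0e-15). The difference between IL-4/13 + Inf and Inf was -0.12 (95% interval -0.23 to -0.02, adjusted p = 0.10), and that of IL-4/13 against control was 0.06 (95% interval -0.05 to 0.17, adjusted p = 0.61).

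Slc30a1 encodes ZnT1, which exports zinc across the plasma membrane and is a textbook target of MTF1. It was at 8.40, 10.1, and 7.92 CPM in control, at 8.04, 6.03, and 6.47 CPM in IL-4/13, at 7.44, 7.84, and 6.79 CPM in Inf, and at 7.69, 7.36, and 6.82 CPM in IL-4/13 + Inf. Control overlapped with IL-4/13 and lay just above Inf and IL-4/13 + Inf, and the treated conditions overlapped with each other. None of its comparisons passed the test, with log2 fold changes against control of -0.35 for IL-4/13 (95% interval -0.63 to -0.08, adjusted p = 0.13), -0.25 for Inf (95% interval -0.52 to 0.01, adjusted p = 0.14), and -0.27 for IL-4/13 + Inf (95% interval -0.54 to 0.00, adjusted p = 0.14). The upper bound with Inf, 0.01, lay far below the 1.74 of Mt1. In 8.08% of its 50-base stretches, Slc30a1 overlaps the antisense gene 1700034H15Rik, which had at most 4 counts in any library. Mtf1, the gene of the zinc sensor, was at 25.7 ± 1.52 CPM in control and 27.8 ± 2.31 CPM in Inf (SD, n = 3), a log2 fold change of 0.12 (95% interval -0.04 to 0.27), and it is named here after its values were seen. Whether zinc or MTF1 had a part in the rise of Mt1 was not tested.

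Tfrc encodes the transferrin receptor, through which most cells take up iron. It was at 169, 181, and 167 CPM in control, at 202, 198, and 188 CPM in IL-4/13, at 227, 232, and 224 CPM in Inf, and at 275, 281, and 278 CPM in IL-4/13 + Inf. The 4 conditions did not overlap. Inf raised Tfrc 1.32-fold (log2 fold change 0.40, SE 0.044, adjusted p = 7.1e-09), and IL-4/13 on top of Inf raised it by a further 0.29 on the log2 scale (SE 0.043, adjusted p = 8.4e-06). The difference for IL-4/13 alone, 0.18 (SE 0.044, adjusted p = 0.0062), was below the fold threshold.

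Slc11a2 encodes DMT1, the carrier that moves ferrous iron out of the endosome and into the cytosol. It was at 74.7, 65.4, and 72.3 CPM in control, at 83.8, 79.4, and 77.8 CPM in IL-4/13, at 283, 274, and 260 CPM in Inf, and at 278, 282, and 283 CPM in IL-4/13 + Inf. The libraries with Inf formed 1 range well above the others. Inf raised it 3.84-fold (log2 fold change 1.94, SE 0.051, adjusted p = 8.6e-24). Adding IL-4/13 to Inf changed it by 0.05, with a 95% interval of -0.05 to 0.14 (adjusted p = 0.54), while IL-4/13 alone gave 0.18 (95% interval 0.08 to 0.29, adjusted p = 0.027), below the fold threshold.

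Steap4 encodes a metalloreductase that reduces ferric iron and cupric copper, also known from inflamed adipose tissue. It had 6, 8, and 12 counts in control and 11, 9, and 12 counts in IL-4/13, against 631, 854, and 640 counts in Inf and 696, 617, and 529 counts in IL-4/13 + Inf. On the normalised scale, the Inf libraries were at 41.9, 41.6, and 38.8 CPM and the IL-4/13 + Inf libraries at 34.5, 34.7, and 35.7 CPM, with no overlap. The log2 fold change with Inf was 6.28 (95% interval 5.98 to 6.58, adjusted p = 9.2e-25), the largest among the 9 genes. The difference of IL-4/13 + Inf from Inf was -0.22 (95% interval -0.38 to -0.07, adjusted p = 0.042), which did not reach the fold threshold, and without the third Inf library it was -0.25 (adjusted p = 0.032), which did.

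Fth1 encodes the ferritin heavy chain, which oxidises iron and stores it in the ferritin shell. It was at 1899, 1792, and 1828 CPM in control, at 1658, 1631, and 1685 CPM in IL-4/13, at 5421, 4753, and 5098 CPM in Inf, and at 3697, 3565, and 3805 CPM in IL-4/13 + Inf. The 4 conditions did not overlap, and their order was that of Mt1. Inf raised Fth1 2.77-fold (log2 fold change 1.47, SE 0.041, adjusted p = 3.9e-23), and IL-4/13 on top of Inf lowered it 1.38-fold (log2 fold change -0.46, SE 0.040, adjusted p = 3.2e-10). IL-4/13 alone gave -0.15 (SE 0.040, adjusted p = 0.016), below the fold threshold.

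Of the 50-base stretches of Fth1, 4.01% also occur on the same strand in the pseudogene Gm6977. That gene had 105 to 644 counts, or 0.344 to 0.762% of the counts on both, and how reads matching several places were counted is not given in the sources used here. Ftl1, the ferritin light chain gene, is named here after its values were seen. It was at 165 ± 6.08 CPM in control and 187 ± 15.9 CPM in Inf (SD, n = 3), and its log2 fold change of 0.18 (95% interval 0.06 to 0.30, adjusted p = 0.020) was below the fold threshold.

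Slc40a1 encodes ferroportin, the known exporter of iron from cells. It was at 23.1, 20.8, and 20.7 CPM in control, at 13.0, 11.5, and 13.0 CPM in IL-4/13, at 7.51, 9.06, and 6.55 CPM in Inf, and at 4.12, 5.23, and 4.45 CPM in IL-4/13 + Inf. The 4 conditions again did not overlap, and the level was highest in control and lowest with both. IL-4/13 lowered Slc40a1 1.72-fold (log2 fold change -0.78, SE 0.11, adjusted p = 8.7e-06) and Inf lowered it 2.77-fold (log2 fold change -1.47, SE 0.12, adjusted p = 7.1e-12). Both together lowered it 4.69-fold (log2 fold change -2.23, SE 0.13, adjusted p = 2.3e-15). Hamp, the gene of hepcidin, which degrades ferroportin protein, had at most 1 count in any library.

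The response to IL-4/13 with Inf was then compared with the response without Inf, as an interaction term in the same fit. It was called for 2 of the 9 genes, Mt1 and Fth1, both negative, where 1.59% of all tested genes were called in that direction. For Mt1 it was -0.37 (95% interval -0.53 to -0.21, adjusted p = 0.0055), and for Fth1 it was -0.31 (95% interval -0.43 to -0.20, adjusted p = 6.9e-04). For Slc40a1 it was 0.03 (95% interval -0.34 to 0.39, adjusted p = 0.97), so the log2 responses of -0.78 and -0.76 did not differ detectably. For Tfrc it was 0.10 (95% interval -0.02 to 0.23, adjusted p = 0.49), and for Slc39a14 it was -0.18 (95% interval -0.33 to -0.03, adjusted p = 0.25). Slc30a1 had the largest positive estimate of the 9, 0.34 (95% interval -0.05 to 0.73, adjusted p = 0.48). That of Slc11a2 was -0.14 (95% interval -0.28 to 0.00, adjusted p = 0.39). The estimates for Mt2 and Steap4 had standard errors of 0.57 and 0.35, so that only large interactions could have been detected for them.

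**Figure D3:**
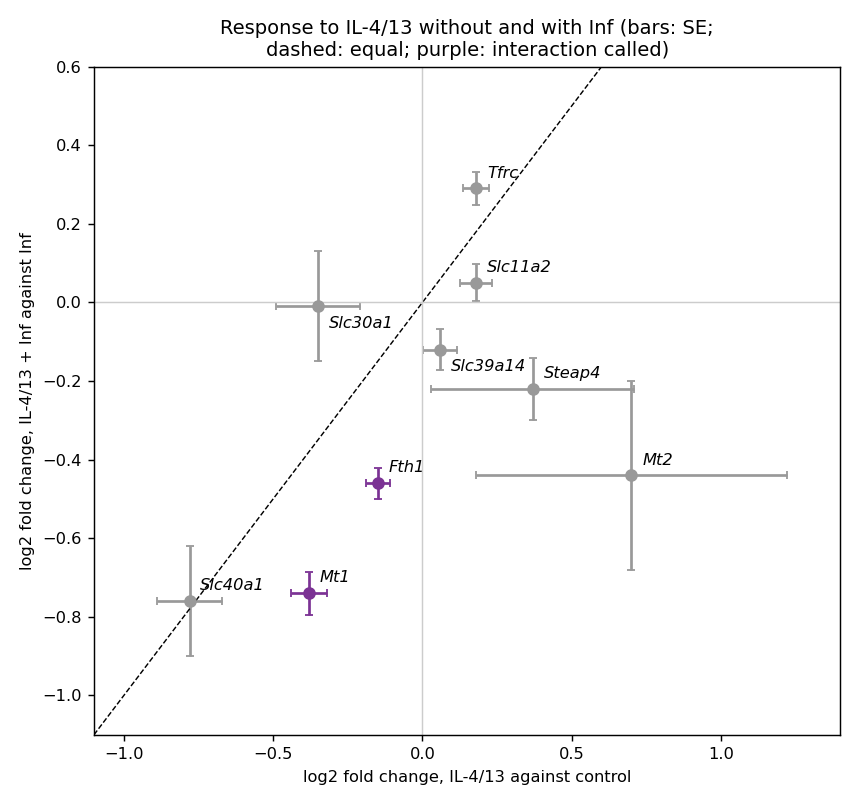
Log2 fold change of IL-4/13 without Inf (horizontal) against that with Inf (vertical) for the 9 genes, with SE bars; the dashed line marks equal responses. Mt1 and Fth1 (purple) lie below the line, and Slc40a1 lies on it at -0.78 and -0.76.

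The same comparison can be read in CPM, as the amount that Inf added to the level. For Mt1, Inf added 211 ± 10.9 CPM without IL-4/13 and 110 ± 6.95 CPM with it (SE), the second being 52.3% of the first. For Fth1 it added 3251 ± 195 and 2031 ± 70.8 CPM (SE), or 62.5%. Slc11a2 gained 202 ± 7.36 and 201 ± 2.56 CPM (SE), or 99.7%, and Steap4 gained 40.3 ± 0.999 and 34.3 ± 0.383 CPM (SE), or 85.2%. For Tfrc the second gain, 82.5 ± 4.65 CPM (SE), was 149% of the first, 55.5 ± 4.93 CPM (SE), although its interaction on the log2 scale was not called. These percentages are descriptions without a test.

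Levels can be compared between genes only per length of transcript. In control, per kilobase of the longest coding transcript, Fth1 was at 1231 ± 36.4 CPM, Mt1 at 83.1 ± 2.53, Tfrc at 35.2 ± 1.54, Slc39a14 at 18.7 ± 0.342, Slc11a2 at 16 ± 1.10, Slc40a1 at 6.39 ± 0.412, Slc30a1 at 1.68 ± 0.219, Mt2 at 0.633 ± 0.404, and Steap4 at 0.165 ± 0.0601 (SD, n = 3). Fth1 and Mt1 led in every condition. In Inf, Slc11a2 at 61.7 ± 2.67 CPM per kilobase passed Tfrc at 46.6 ± 0.820 and Slc39a14 at 40.9 ± 3.24, and Steap4 at 12.9 ± 0.545 passed Slc40a1 at 2.29 ± 0.376 (SD, n = 3). Steap4 and Mt2, at 9.19 ± 2.78 CPM per kilobase in Inf, differed by little more than their spread. The place of Mt2 in this order is uncertain, since the strand setting used in counting is not known. In IL-4/13 + Inf, Slc30a1 at 1.39 ± 0.0839 and Slc40a1 at 1.36 ± 0.169 CPM per kilobase did not differ beyond their spread. With the total exon length instead, Slc11a2 (11.1 ± 0.762 CPM per kilobase) was above Slc39a14 (8.73 ± 0.160) already in control, so that part of the order depends on the length chosen.

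The genes were next set beside the other genes of iron handling, from a list of 52 that includes 6 of the 9. Apart from these 6, 35 listed genes were tested, of which 15 rose with Inf and 1, Abcg2, fell, beside 16.3% and 15.3% of all tested genes. Over all 41 tested, the median log2 fold change was 0.29, against 0.01 over all tested genes. Lcn2, which encodes the siderophore-binding lipocalin, was at 0.181 ± 0.111 CPM in control and 1252 ± 51.6 CPM in Inf (SD, n = 3). Hp, which encodes the haemoglobin scavenger haptoglobin, was at 0.298 ± 0.0570 and 300 ± 26.9 CPM, and Cp, which encodes the ferroxidase ceruloplasmin, at 138 ± 3.24 and 1213 ± 45.0 CPM (SD, n = 3). Hfe, the haemochromatosis gene, rose by a log2 fold change of 1.61 with Inf (adjusted p = 1.1e-06).

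On top of Inf, IL-4/13 raised 1 of these 35 genes and lowered 8, beside 7.55% and 7.00% of all tested genes. With DESeq2, 1 rose and 7 fell. The median over the 41 was -0.12, against -0.01 over all tested genes. Hfe was the gene that rose (log2 fold change 0.68, SE 0.18, adjusted p = 0.0067), as Tfrc did among the 9. On the log2 scale, Hp changed by -1.14 (SE 0.070, adjusted p = 2.3e-10) and Lcn2 by -0.42 (SE 0.047, adjusted p = 8.6e-08). Hmox1, Slc48a1, and Blvrb, which encode haem oxygenase, a haem carrier of the endolysosome, and biliverdin reductase B, were among those that fell and are named after their values were seen. Of the other listed genes of haem handling, Alas1 (-0.28, adjusted p = 0.002) and Hpx (-1.71, adjusted p = 0.025) also fell. Both are named after their values were seen, and Hpx had only 15 to 19 counts per Inf library. Not called in this comparison were Hmox2 (log2 fold change -0.00), Blvra (0.06), Flvcr1 (0.05), Fech (-0.16), and Abcg2 (-0.06). Hmox1 was at 140 ± 3.47, 105 ± 6.6, 236 ± 7.64, and 128 ± 3.96 CPM in the 4 conditions in the order control, IL-4/13 alone, Inf alone, and both (SD, n = 3). It rose with Inf (log2 fold change 0.75, adjusted p = 5.2e-14) and fell with IL-4/13 on top of Inf (-0.88, adjusted p = 1.3e-14). Slc48a1 behaved alike in direction, at 0.97 and -0.62, and so did Blvrb, at 0.26 and -0.32, all past the test.

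IL-4/13 alone raised 2 and lowered 3 of the 35 genes, where 2.78% of all tested genes rose and 2.57% fell. Cp (log2 fold change 0.46, adjusted p = 7.7e-09) and Flvcr1, a haem exporter (0.35, adjusted p = 0.040), rose. Hmox1 (-0.42, adjusted p = 3.7e-07), Slc48a1 (-0.30, adjusted p = 5.7e-05), and Blvrb (-0.39, adjusted p = 8.2e-04) fell. Flvcr1 is also named after its values were seen. The interaction was negative and called for Cp (-0.66, SE 0.061), Hmox1 (-0.46, SE 0.069), and Slc48a1 (-0.31, SE 0.067). DESeq2 called 4 of the 35 genes in that direction. The genes of both iron regulatory proteins are named after their values were seen. With Inf, the log2 fold change of Aco1 was -0.20 (adjusted p = 0.0027, below the fold threshold) and that of Ireb2 was 0.07 (95% interval -0.04 to 0.18). Aco1 was called with IL-4/13 + Inf against control, at -0.27 (adjusted p = 1.8e-04).

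**Figure D4:**
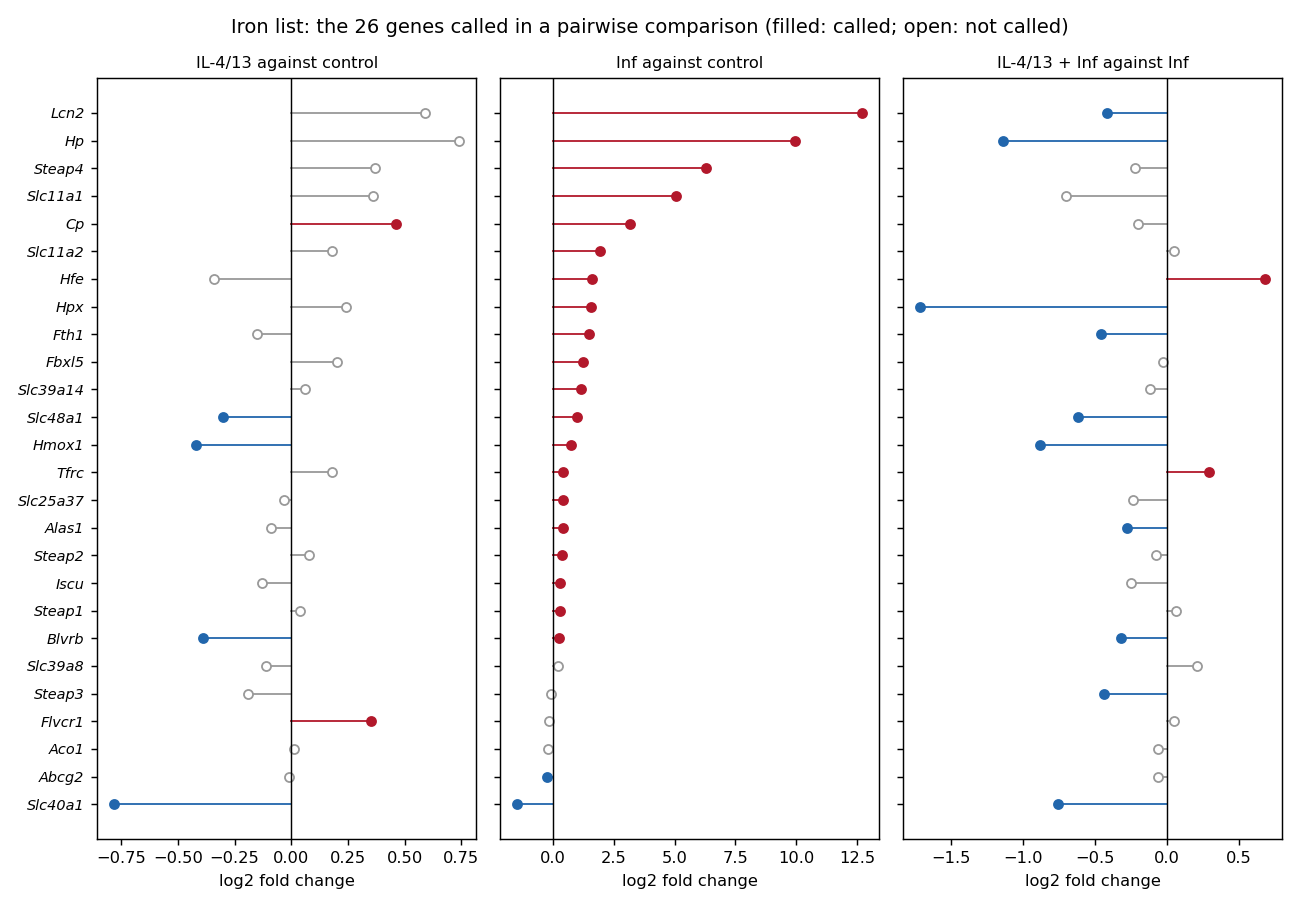
Log2 fold changes (horizontal axes, each panel with its own scale) of the 26 genes of the iron list that were called in at least 1 pairwise comparison, ordered by the change with Inf; filled red points were called up, filled blue points down, and open points were not called. Most genes lie right of 0 with Inf, and Hfe and Tfrc are the 2 called up for IL-4/13 + Inf against Inf.

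Of 30 genes of metallothionein and zinc transport, which include 4 of the 9, 16 others were tested. Inf upregulated 2 of these and downregulated 3, shares near the 16.3% and 15.3% of all tested genes. Slc39a1, the carrier ZIP1, rose from 206 ± 6.66 to 259 ± 8.11 CPM (SD, n = 3), a log2 fold change of 0.33 (adjusted p = 2.0e-07). Slc39a4, named after its values were seen, rose from at most 3 counts to between 19 and 37 counts per library. The genes that fell were Slc39a10 (log2 fold change -0.55, adjusted p = 1.7e-08), Slc30a4 (-0.37, adjusted p = 1.2e-07), and Slc39a11 (-0.39, adjusted p = 3.1e-05). These 3 encode the carriers ZIP10, ZnT4, and ZIP11. Adding IL-4/13 to Inf lowered Slc39a13, the carrier ZIP13 of the secretory pathway (log2 fold change -0.31, adjusted p = 1.6e-04). The medians of the zinc list, 0.07 with Inf and -0.03 for IL-4/13 + Inf against Inf, were close to the 0.01 and -0.01 of all tested genes.

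Copper, which metallothioneins also bind, was covered by 12 genes, of which 11 were tested. Inf upregulated 4 of them, where 16.3% of all tested genes rose, and their median log2 fold change was 0.24, against 0.01 over all tested genes. Sod3, the extracellular superoxide dismutase that carries copper and zinc, rose from 246 ± 24.1 to 572 ± 35.6 CPM (SD, n = 3), a log2 fold change of 1.22 (adjusted p = 3.5e-07). Slc31a2, a copper carrier, rose by 0.67 (adjusted p = 3.3e-04), and Atox1, a copper chaperone, by 0.40 (adjusted p = 2.1e-05). Atp7b, a copper pump named after its values were seen, rose by 1.22 (adjusted p = 2.7e-04). It had 19 to 22 counts per control library and 40 to 60 per Inf library. Adding IL-4/13 to Inf lowered Atox1 (log2 fold change -0.29, adjusted p = 0.0017).

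The 9 genes also differed in which other genes tracked them across the 12 libraries, which share conditions, so the correlations are descriptions. By log2 CPM, Mt1 was most like Hif1a (Pearson r = 0.994), Fth1 most like Ifitm2 (0.997), Steap4 most like Tnip1 (0.998), and Slc11a2 most like Cxcl1 (0.998). Slc40a1 was most like the collagen genes Col11a1 (0.992) and Col5a2 (0.988), Tfrc most like Sestd1 (0.990), and Slc39a14 most like Foxo3 (0.996). Mt2 was most like Pdpn (0.985). Slc30a1 had no close match, with Ebf1 the nearest at 0.855. Between members, the pair Mt1 and Fth1 and the 3 pairs among Slc39a14, Slc11a2, and Steap4 were the closest (0.99 each), and Slc40a1 and Tfrc were opposed (-0.97).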

How the data were processed

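RNA from 12 libraries of 3T3-L1 cells was extracted with a PureLink kit, selected for poly(A), and made into stranded libraries, per the labels. The submitters' processing notes name STAR, featureCounts, and GRCm39, and versions, annotation, strand setting, and treatment of reads with several matches are not given in the sources used here. The authors deposited raw counts per gene, without normalization, for 56941 genes. From these counts, edgeR 4.0.16 (R 4.3.3, limma 3.58.1) filtered genes with filterByExpr (minimum count 10, total 15), leaving 14810, and computed TMM factors of 0.986 to 1.017. One robust quasi-likelihood fit took all 12 libraries with a term per condition and no covariate. P values were adjusted by Benjamini-Hochberg within each contrast over all tested genes. Calls needed a log2 fold change beyond 0.25 in either direction at an adjusted p below 0.05. The paper sets these limits for upregulated genes of its pseudobulk comparison, and here they also served for falls and the interaction. DESeq2 1.42.0, which the paper names for these libraries, was an alternative. SE is the log2 fold change over the square root of F, and 95% intervals use the normal approximation. CPM use the total of tested genes times the TMM factor.

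Depth was 13446005 to 20775769 counts, and 3 or fewer counts were treated as near the limit of detection. Fits were tested on simulated counts. The rest used Python 3.11.15 with numpy 2.4.6, pandas 2.3.3, and, for figures, matplotlib 3.10.9. Transcripts, lengths, and shared 50-mers came from GENCODE M21 (GRCm38), a build other than that of the counts, and were matched by gene identifier. Promoters came from RefSeq (GRCm38.p6). The IRE search was added after the data were seen.

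The members and lists were chosen with earlier results of these data known. Named genes were the 9 members, up to 8 genes each of the zinc, iron, and copper lists (called in a contrast, groups without overlap, at least 5 CPM in 1 group, largest changes), and the 3 genes with a mean of at least 5 CPM most correlated with each member. Others are marked as named after their values were seen. The alternatives were DESeq2, no filter, a mean of at least 50 counts, scaling by library size alone or by DESeq2's factors, the compared libraries only, a replicate block, each library left out, fold thresholds of 0 and 1, an adjusted p below 0.01, and total exon length.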

Additional observations from a re-analysis of the deposited data

Results flagged for a closer look

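Among the 70 tested genes of the 9 and of the 3 wider lists, 6 were singled out because their response to IL-4/13 differed with and without Inf, by the interaction term. All 6 were negative, meaning that the signed log2 response to IL-4/13 was lower with Inf than without it. Mt1, Fth1, Hmox1, and Slc48a1 fell further with IL-4/13 when Inf was present. Cp changed by 0.46 with IL-4/13 alone and by -0.20 on top of Inf, and Atox1 by 0.04 and -0.29. The interaction terms on the log2 scale were -0.37 for Mt1, -0.31 for Fth1, -0.66 for Cp, -0.46 for Hmox1, -0.31 for Slc48a1, and -0.34 for Atox1. Among all tested genes, 1.59% were called in that direction and 1.52% in the other. The calls of Mt1, Fth1, Cp, Hmox1, and Slc48a1 held with each of the 12 libraries left out and in 6 other fits. Atox1 (adjusted p = 0.049) kept its call in 3 of 12 fits with a library left out, with adjusted p from 0.017 to 0.19, and lost it with the replicate block (adjusted p = 0.069).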

How the results depend on the processing

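Among the member values in alternatives that kept every library, 418 held their direction and call, 11 lost the call, 4 gained it, and 0 reversed, and each of the 15 changes came from a fold threshold of 0 or 1. With a library left out, 532 held, 2 gained a call (Mt2 and Steap4 in IL-4/13 + Inf against Inf, given above), and 6 uncalled values changed sign. For Slc30a1 in IL-4/13 + Inf against Inf these were 0.04 without Inf replicate 2 and 0.03 without IL-4/13 + Inf replicate 3, in a range from -0.06. For the interaction of Slc40a1 they were -0.03 without control replicate 1 or IL-4/13 replicate 2, -0.07 without Inf replicate 3, and -0.08 without IL-4/13 + Inf replicate 2, in a range up to 0.17. A fold threshold of 0 gave 2 members up with IL-4/13, 4 zinc genes called for IL-4/13 + Inf against Inf, and 11 iron genes called with IL-4/13. A threshold of 1 gave 0 members up and 0 down for IL-4/13 + Inf against Inf, and 0 members down with IL-4/13 and in the interaction. It gave 0, 4, 3, 0, and 0 zinc genes and 0, 12, 11, 2, and 0 iron genes in the order IL-4/13 alone, Inf alone, both against control, both against Inf alone, and the interaction. With a library left out, zinc calls for IL-4/13 + Inf against Inf ranged from 2 to 4, the highest without Inf replicate 2, and those of the interaction from 1 to 2, the highest without Inf replicate 3. At a mean of at least 50 counts, Mt2 was not tested. Deviations of same-numbered libraries correlated at -0.146 to 0.0543 over 18 pairs, with 0 over 0.1, so no effect shared by replicate number was detected. With 3 libraries per condition, this cannot show whether the libraries were paired by design. With the replicate block, 7 members rose and 1 fell with Inf, and no count of members changed. Depth limits Mt2 and Steap4 without Inf, at 12 or fewer counts per library.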
